A study of Mus musculus with 4 samples.

Results

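The 41 genes described here are cytosolic aminoacyl-tRNA synthetases and targets of the transcription factor ATF4, with Atf4 itself. They were chosen by a list of symbols, and all 41 were found among the 23235 symbols of each deposited table. That list was drawn up with earlier results of these data known. Where a count below exceeds the share of all genes, part of the excess may follow from this choice. The list holds 20 synthetase genes, 8 genes of amino acid synthesis, 5 of amino acid transport, and 8 stress genes made up of Atf4 and genes of the stress response around it.

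Aminoacyl-tRNA synthetases join each amino acid to its transfer RNA and so feed the ribosome. When amino acids run short or the endoplasmic reticulum is stressed, kinases phosphorylate the translation factor eIF2, general translation slows, and the messenger RNA of Atf4 is translated better. ATF4 protein then switches on genes that make, import and charge amino acids, and growing fibroblasts, which need amino acids for new protein, express this programme without added stress.

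Poly(A)-selected RNA was sequenced from primary embryo fibroblasts of C57BL/6 mice, with 1 library for each of 4 genotypes. G3KO denotes the library labelled deficient for Gadd45 and for Terc in generation 3 (G3), G3 the library labelled Terc-deficient in generation 3, KO the library labelled Gadd45-deficient, and WT the wild-type library. Terc encodes the RNA template of telomerase, and the series' design text gives the Gadd45 gene as Gadd45a, which encodes a stress-induced protein. The labels state neither the age of the embryos, nor whether a library pooled several embryos, nor culture passage.

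Levels are the deposited FPKM, fragments normalized to transcript length and to the mapped fragments of the library. A difference between libraries is that of their log2(FPKM + 1) values. The size rule calls a gene higher at a difference of 1 or more, and lower at -1 or less, which is 2-fold in FPKM + 1. No genotype had a second library, so no difference between a pair of libraries has a replicate check. A fit over all 4 libraries that assumes the effects of the labels to add was not made, and no p-values are given. Each count is therefore set beside the share of all 11587 genes with a mean of at least 1 FPKM over the 4 libraries that met the same rule, and all 41 genes passed that filter.

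Depth, estimated from the spacing of low values, was 19500000 to 19900000 fragments per library. Gadd45a went against the labels at 45.1 FPKM in G3KO, 31.4 in G3, 33.9 in KO and 22.9 in WT, so each genotype below is that of the library's label. Terc was listed at 0 in G3KO and G3, at 0.259 FPKM in KO and at 0.530 FPKM in WT, which follows the labels at very low counts. The library labelled KO alone held Y-linked RNA (Ddx3y at 16.4 FPKM, against at most 0.0228 FPKM in the others), so Y-linked RNA differed along with the label in comparisons with KO. Fibroblast markers were abundant throughout, 8 of 8 passing the filter with a summed level of 11522 FPKM in G3KO, 6685 in G3, 12202 in KO and 11581 in WT. The 6 macrophage markers summed to 6.46 FPKM in G3KO, 7.11 in G3, 4.12 in KO and 3.01 in WT. Most of that sum was Cd14 and Cd68, the only 2 of the 6 that passed the filter. Among the rest, Ptprc (0.01005 FPKM in G3, 0.0508 in WT) and Emr1 (0.0333 and 0.0505) were lower in G3. Itgam stood at 0.034 FPKM in both, and Csf1r was higher (0.828 in G3, 0.363 in WT). Between G3 and WT the sum thus does not show a shift shared by the markers. In G3KO each of the 6 was higher than in KO, by 0.027 (Ptprc) to 0.45 (Csf1r) in log2(FPKM + 1). Each was also higher in G3KO than in WT, by 0.039 (Ptprc) to 0.89 (Cd14). The 5 epithelial markers summed to 1.85 FPKM in G3KO, 1.67 in G3, 2.66 in KO and 8.69 in WT. Nearly all of the WT sum was Krt8 (3.04 FPKM) and Krt18 (5.52), the only 2 that passed the filter. Krt5 was also lower in G3 (0, against 0.0774 in WT). Epcam (0.109 FPKM in G3, 0.0552 in WT) and Cdh1 (0.0120 and 0) were higher in G3. The 4 endothelial markers summed to at most 1.49 FPKM. The muscle regulator Myog was listed at 0 in all libraries but WT, while the 4 muscle markers, mostly the actin Acta1, summed to 139 FPKM in G3KO, 78.8 in G3, 69.3 in KO and 64.0 in WT. These markers did not move together. Between G3 and WT, Acta1 had a difference of 0.79 and Des of -1.03. Des stood at 18.6 FPKM in G3KO, 12.1 in G3, 12.9 in KO and 25.9 in WT. Myod1 was listed at 0 in G3 and KO and at no more than 0.0621 FPKM elsewhere.

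The levels of the 41 genes shared a common order. WT was the highest library for 38 of 41 genes, against 30.8% of all genes tested, and G3 was the lowest for 28 and G3KO for 11. For 35 of 41 genes both G3 libraries lay below both of the others, which held for 35.2% of all genes tested. G3 was the lowest library for 34.2% of all genes tested. In bulk RNA, fewer cells that express a gene and less RNA per cell cannot be told apart.

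**Figure D1:**
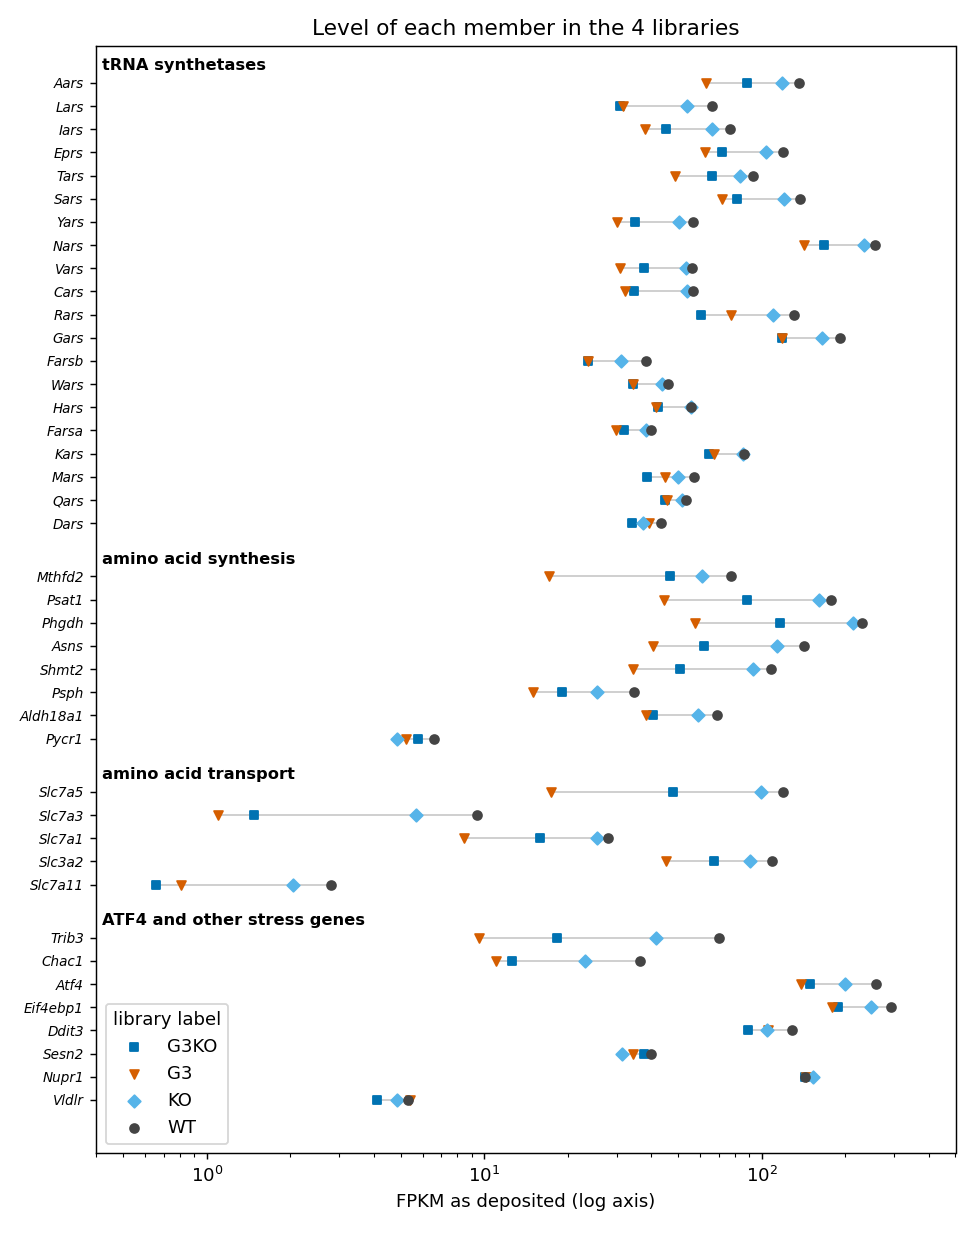
FPKM as deposited (log axis) of each of the 41 genes in the libraries labelled G3KO (squares), G3 (triangles), KO (diamonds) and WT (circles), 1 library each, with genes ordered within each list by the difference of G3 minus WT. The WT circle is the rightmost point for 38 of 41 genes, and the distance to the G3 triangle is widest for Trib3, Slc7a5 and Slc7a3.

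In G3 against WT, 15 of the 41 genes were lower and none higher by the size rule, where 16.2% of all genes tested passed it, 6.23% lower and 9.93% higher. Those 15 made up 36.6% of the list, and 39 of 41 differences were negative, against 49.6% of all genes. Of the 15 lower genes, 11 belonged to the 13 genes of amino acid synthesis and transport, 2 to the 20 synthetases and 2 to the 8 stress genes. All 10 mitotic genes of a proliferation list were lower as well. Their summed level was 139.5 FPKM in G3KO, 54.4 in G3, 327 in KO and 344 in WT. The summed fibroblast markers, carried by collagens, Vim and Fn1, were in G3 at 0.577 of the WT level. Of the 8 fibroblast markers 6 had a negative difference, while Fn1 (0.27) and Pdgfra (0.15) had a positive one. The part of the mitotic genes or the fibroblast markers in these differences was not tested.

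All 5 amino acid transporters were lower in G3 than in WT, with a median difference of -1.61, though Slc7a11 did not pass with a pseudocount of 5 FPKM. Slc7a5, the transporting chain of an exchanger for large neutral amino acids such as leucine, stood at 47.9 FPKM in G3KO, 17.4 in G3, 99.5 in KO and 119.7 in WT. Its difference of G3 minus WT was -2.72, a 6.90-fold lower FPKM. Slc3a2, the heavy chain that carries Slc7a5 and Slc7a11 to the cell surface, stood at 67.1 FPKM in G3KO, 45.3 in G3, 90.5 in KO and 109 in WT, with a smaller difference of -1.25. The chains of this exchanger thus kept the same order of libraries with different sizes.

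Slc7a1, the general transporter of arginine and lysine, stood at 15.9 FPKM in G3KO, 8.46 in G3, 25.5 in KO and 27.9 in WT, a difference of -1.61 between G3 and WT. Slc7a3, a related cationic amino acid transporter on the X chromosome, stood at 1.48 FPKM in G3KO, 1.10 in G3, 5.68 in KO and 9.43 in WT, and its difference was -2.31. These levels rest on about 75 fragments in G3KO, 55 in G3, 289 in KO and 468 in WT, so the order of G3KO and G3 was not detectable at this depth (95% counting interval of the log2 ratio -0.089 to 0.96). Slc7a11, which imports cystine in exchange for glutamate, stood at 0.655 FPKM in G3KO, 0.809 in G3, 2.05 in KO and 2.80 in WT, with a difference of -1.07. The added 1 FPKM bears on such low levels, and with pseudocounts of 0.1 and 5 FPKM the difference of Slc7a11 was -1.68 and -0.43. That of Slc7a3 was -1.24 with 5 FPKM. For both low transporters the G3 libraries lay together, well under KO and WT.

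Among genes of amino acid synthesis 6 of 8 were lower in G3 than in WT, with a median difference of -1.70 against 0.0060 over all genes tested. Mthfd2, a mitochondrial folate enzyme, stood at 46.9 FPKM in G3KO, 17.1 in G3, 61.0 in KO and 77.6 in WT, with a difference of G3 minus WT of -2.11. Its partner Shmt2, which passes a carbon unit from serine to folate, stood at 51.0 FPKM in G3KO, 34.4 in G3, 93.4 in KO and 108 in WT and differed by -1.63. G3 was thus the lowest library for each of these folate enzymes.

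The serine pathway makes serine from a glycolytic intermediate in 3 steps. Phgdh, its first enzyme, stood at 116 FPKM in G3KO, 57.6 in G3, 214 in KO and 230.2 in WT, with a difference of G3 minus WT of -1.98. Psat1, the aminotransferase of the pathway, stood at 88.8 FPKM in G3KO, 44.4 in G3, 161 in KO and 178 in WT, also a difference of -1.98. Psph, the phosphatase that ends the pathway, stood at 19.1 FPKM in G3KO, 14.9 in G3, 25.6 in KO and 34.7 in WT with a difference of -1.16. All steps of the pathway were thus lower by the size rule, the last by the least. With a pseudocount of 5 FPKM Psph was at -0.99 and no longer passed, and 12 of the 41 genes did.

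Asns, the asparagine synthetase, stood at 62.1 FPKM in G3KO, 40.6 in G3, 114 in KO and 142 in WT, a difference of G3 minus WT of -1.78. The proline enzymes differed less. Aldh18a1, which starts proline synthesis, stood at 40.7 FPKM in G3KO, 38.4 in G3, 58.8 in KO and 69.3 in WT with a difference of -0.83, and Pycr1, which ends it, at 5.75 FPKM in G3KO, 5.22 in G3, 4.86 in KO and 6.58 in WT with a difference of -0.29. Pycr1 was the exception among these 8 genes, with KO as its lowest library.

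All 20 synthetases had a negative difference between G3 and WT, with a median of -0.77 and a range of -1.10 to -0.14. By the size rule 2 of 20 (10.0%) were lower, a share near the 6.23% of all genes. Lars did not pass after rescaling to TPM (-0.99) or with a pseudocount of 5 FPKM (-0.96), while Iars passed with size factors (-1.05), quantile normalization (-1.02) and a pseudocount of 0.1 FPKM (-1.02). Aars, the alanine enzyme, stood at 88.8 FPKM in G3KO, 63.1 in G3, 118 in KO and 136 in WT, a difference of -1.10. Lars, the leucine enzyme, stood at 30.8 FPKM in G3KO, 31.6 in G3, 53.9 in KO and 66.3 in WT and differed by -1.05. Next came Iars, the isoleucine enzyme, at 45.3 FPKM in G3KO, 38.0 in G3, 66.5 in KO and 76.9 in WT with a difference of -0.998, just short of the rule, and Eprs, which charges both glutamate and proline, at 72.03 FPKM in G3KO, 62.3 in G3, 104 in KO and 119.6 in WT with -0.93. At the other end Dars, the aspartate enzyme, stood at 34.2 FPKM in G3KO, 39.2 in G3, 37.3 in KO and 43.2 in WT, a difference of -0.14. Over the 20 enzymes levels ran from 23.6 FPKM (Farsb) to 168 FPKM (Nars) in G3KO, 23.7 to 142 in G3, 31.0 to 234 in KO and 38.4 to 257 in WT, with Farsb, a phenylalanine enzyme subunit, lowest and Nars, the asparagine enzyme, highest in each library.

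The median of the synthetases was 0.86 above that of the 13 synthesis and transport genes, which was -1.63. Summed over the list, synthetase RNA in G3 was 0.597 of that in WT (1073 FPKM in G3 and 1797 in WT). Synthesis genes were at 0.299 (253 FPKM in G3 and 846 in WT) and transporters at 0.272 (73.0 FPKM in G3 and 269 in WT). In vertebrates 8 of these synthetases sit in a large multi-enzyme complex. Their median difference was -0.55, against -0.81 for the 12 synthetases outside it, with ranges of -1.05 to -0.14 and -1.10 to -0.40 that overlap widely. The 3 scaffold genes of that complex, Aimp1, Aimp2 and Eef1e1, had differences between -0.84 and -0.30.

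Another 17 nuclear genes, not part of the list of 41, encode synthetases of the mitochondrion. They had a median difference of G3 minus WT of -0.23, and none passed the size rule. For 14 amino acids the genes of both compartments were paired by symbol, such as Aars and Aars2. The cytosolic gene had the more negative difference in 13, the exception being Dars. The glutamate, proline and phenylalanine enzymes, whose symbols do not match in this way, were left out. The mitochondrial genes have lower levels, which the added 1 FPKM compresses, and with a pseudocount of 0.1 FPKM, chosen after seeing the data, the count was 11 of 14 and the mitochondrial median -0.29. Vars and Vars2, the valine enzymes, were farthest apart, at -0.84 and 0.22.

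**Figure D2:**
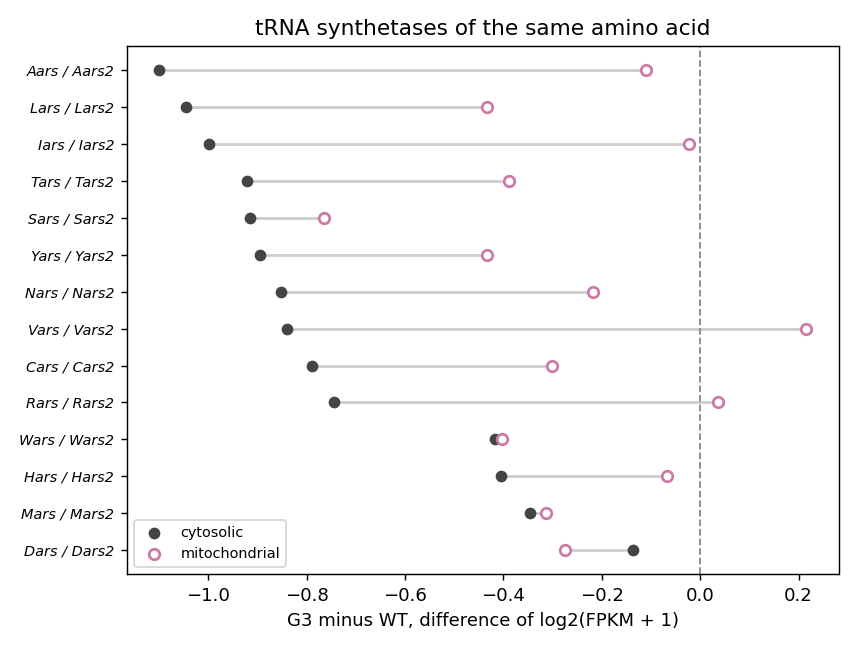
Difference of log2(FPKM + 1) of G3 minus WT for the cytosolic (filled) and mitochondrial (open) synthetase gene of each of 14 amino acids, ordered by the cytosolic value. The filled point lies left of the open point in 13 of 14 rows, and the cytosolic points run from -1.10 to -0.14.

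The stress genes were uneven. Trib3, a pseudokinase that ATF4 induces and that restrains it in turn, stood at 18.3 FPKM in G3KO, 9.60 in G3, 41.5 in KO and 70.2 in WT. Its difference of G3 minus WT, -2.75, was the most negative of the 41 genes. Chac1, an ATF4 and CHOP target that degrades glutathione, stood at 12.6 FPKM in G3KO, 11.1 in G3, 23.1 in KO and 36.4 in WT and differed by -1.63. Both genes had WT highest, then KO, G3KO and G3, the order that 27 of the 41 genes followed. For Chac1 the order of G3KO and G3 was not detectable at this depth (95% counting interval of the log2 ratio -0.032 to 0.41), nor was it for Slc7a3, Gars, Wars and Farsa among the 27.

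Atf4 itself stood at 149 FPKM in G3KO, 139 in G3, 200.2 in KO and 258 in WT, a difference of G3 minus WT of -0.89. ATF4 is controlled largely at translation, and protein was not measured. Eif4ebp1, a repressor of the cap-binding factor eIF4E and an ATF4 target, stood at 189 FPKM in G3KO, 179 in G3, 247 in KO and 292 in WT and differed by -0.71. Ddit3, which encodes the stress factor CHOP, stood at 89.2 FPKM in G3KO, 105 in G3, 104 in KO and 129 in WT and differed by -0.29. The leucine sensor Sesn2, the stress protein Nupr1 and the lipoprotein receptor Vldlr had differences between -0.21 and 0.02. For these genes, which are also counted among ATF4 targets, G3 lay nearer to WT than it did for Trib3 and Chac1.

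Comparing G3KO with G3, 2 of the 41 genes were higher and none lower by the size rule, where 6.29% of all genes tested passed it, 1.51% higher and 4.78% lower. Gadd45a RNA itself was higher in the library labelled G3KO (above), so this direction is that of the labels. The comparison shares the G3 library with G3 minus WT, so the comparisons are not independent. The higher genes were Slc7a5, with a difference of 1.41 and a 2.76-fold higher FPKM, and Mthfd2, with 1.40. Phgdh (1.00, just short of the rule), Psat1 (0.98), Trib3 (0.87), Slc7a1 (0.84), Asns (0.60), Slc3a2 (0.56) and Shmt2 (0.55) came next. With median-of-ratios scaling, quantile normalization or rescaling to TPM, 4 genes were higher.

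The synthetases lay nearer to 0 in this comparison. Their median for G3KO minus G3 was 0.05 with a range of -0.35 to 0.49, and 13 of 20 were positive, which became 17 of 20 with size factors or quantile normalization. Synthesis and transport genes had a median of 0.56 with 12 of 13 positive. Over all genes tested the median was -0.031, and 5349 of 11587 were positive. Aars (0.49) and Tars, the threonine enzyme (0.43), were the most positive synthetases. Rars, the arginine enzyme, was the most negative at -0.35, with 60.5 FPKM in G3KO, 77.4 in G3, 109.8 in KO and 130.4 in WT. Atf4 had a difference of 0.10, Eif4ebp1 of 0.08 and Ddit3 of -0.24.

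Synthetase RNA in G3KO summed to 1.07 times that in G3 (1153 FPKM in G3KO and 1073 in G3). Synthesis genes summed to 1.70 times (430.5 FPKM in G3KO and 253 in G3) and transporters to 1.82 times (133 FPKM in G3KO and 73.0 in G3). Fibroblast markers summed to 1.72 times and the mitotic genes to 2.56 times the G3 level in the same comparison, and their part in it was not tested. Of the 8 fibroblast markers 6 had a positive difference, while Pdgfra (-0.81) and Thy1 (-0.24) had a negative one.

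**Figure D3:**
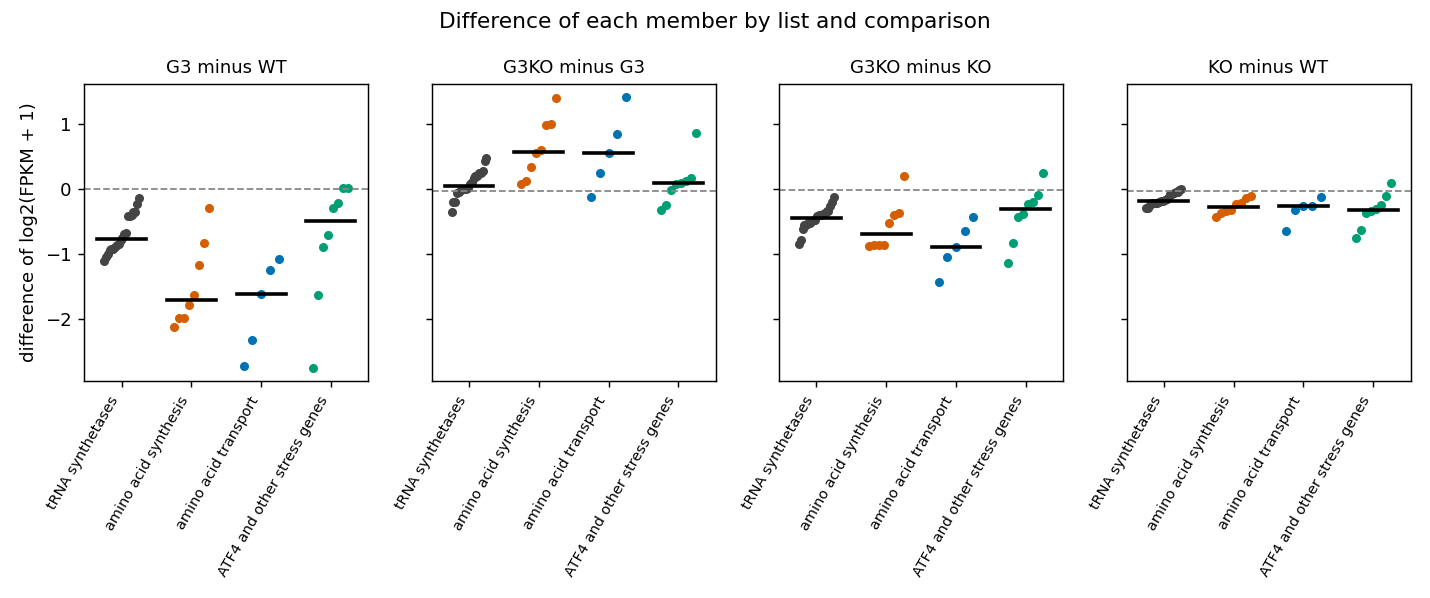
Difference of log2(FPKM + 1) of each of the 41 genes (points) in 4 comparisons, by list, with the list median (black bar) and the median of all 11587 genes tested (dashed line). In G3 minus WT the synthesis and transport bars lie at -1.70 and -1.61 and the synthetase bar at -0.77, while in G3KO minus G3 the synthetase bar lies at 0.05.

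G3KO minus KO, where sex-linked RNA differs along with the label, repeats the G3 comparison on libraries that share none with G3 minus WT. There 3 of the 41 genes were lower and none higher, against 4.83% of all genes past the rule, 2.34% lower and 2.49% higher, and 39 of 41 differences were negative against 51.1% of all genes. The lower genes were the X-linked Slc7a3 (-1.43), Trib3 (-1.14) and Slc7a5 (-1.04), and with a pseudocount of 5 FPKM none was. Of the 10 mitotic genes 9 were lower in this comparison as well. Of the 8 fibroblast markers 6 had a negative difference, with a median of -0.27, and their sum, carried by collagens and Fn1, was at 0.944 of the KO level. The part of either was not tested. The medians were -0.44 for synthetases, -0.69 for synthesis genes, -0.88 for transporters and -0.30 for stress genes, against -0.010 over all genes. All 20 synthetases were again negative, Rars (-0.85) and Lars (-0.79) the most.

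Across the 41 genes the differences of G3 minus WT and G3KO minus KO had Pearson's r of 0.81 and Spearman's rho of 0.81. This r describes genes, which are not independent replicates, and across all 11587 genes it was 0.66. Of the 41 genes 37 were negative in both comparisons, against 39.3% of all genes. For 35 of 41 the G3 minus WT difference was the larger in size, as it was for 8353 of all 11587 genes. Mthfd2 stood out by its contrast, at -2.11 in G3 minus WT and -0.37 in G3KO minus KO, whereas Rars had -0.74 and -0.85.

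**Figure D4:**
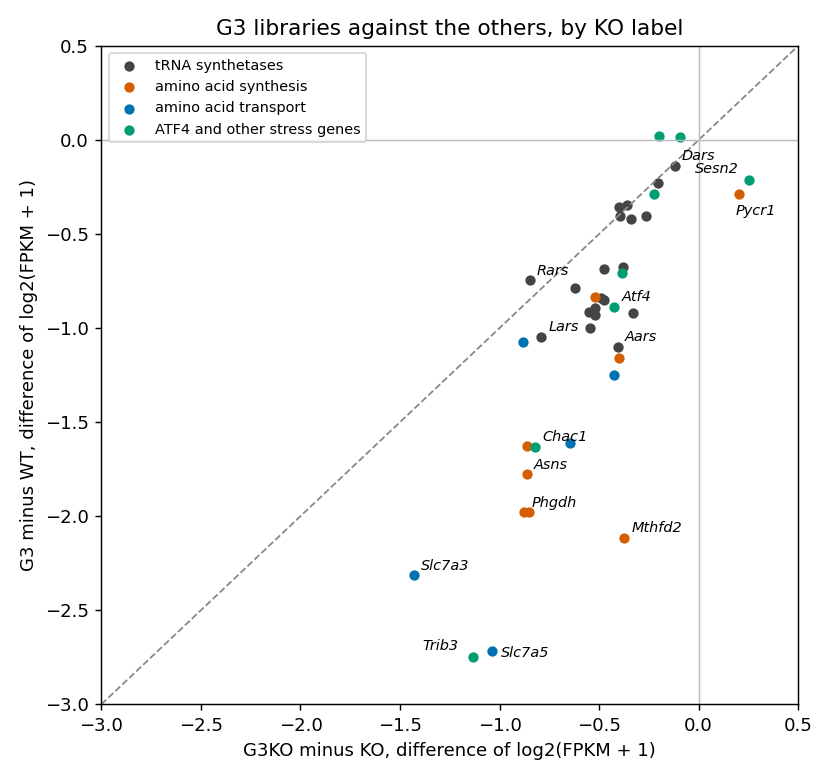
Difference of log2(FPKM + 1) of G3 minus WT (vertical) against G3KO minus KO (horizontal) for the 41 genes, coloured by list, with the line of equality dashed. Points of the synthesis and transport lists lie mostly below the line, Mthfd2 farthest, and the synthetases Rars and Dars lie close to it.

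In KO against WT none of the 41 genes passed the size rule, where 0.509% of all genes did, 0.319% higher and 0.19% lower. Here too the direction is that of the labels, which Gadd45a RNA goes against. Y-linked RNA was present in KO alone, and Xist was nearly absent there. The differences were small and mostly negative, 39 of 41 with a median of -0.21, against 57.5% of all genes and a median of -0.027. Trib3 (-0.75), Slc7a3 (-0.64) and Chac1 (-0.63) were the most negative. For G3KO minus WT 9 of 41 genes were lower and none higher, against 6.65% of all genes past the rule, 2.84% lower and 3.81% higher, with a median of -0.69. In that comparison Slc7a3 (-2.07), Trib3 (-1.88) and Chac1 (-1.45) were the most negative, and the synthetases Rars (-1.09) and Lars (-1.08) also passed the rule.

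Neighbouring genes of the pathway were listed separately. Of 9 genes for eIF2, its kinases and its phosphatases, 1 was higher and none lower in G3 than in WT, with a median of -0.02. That 1 of 9 is 11.1%, near the 9.93% of all genes that were higher. The same shares of all genes, 9.93% higher and 6.23% lower, apply to the other pathway lists. The higher gene was Eif2ak2, the interferon-induced kinase PKR, at 16.5 FPKM in G3KO, 37.1 in G3, 13.3 in KO and 11.7 in WT. Ppp1r15b, a subunit of the eIF2 phosphatase, had a difference of -0.66 and Eif2s1, the phosphorylated subunit, -0.58. The kinases that sense amino acid shortage and endoplasmic reticulum stress, Eif2ak4 and Eif2ak3, had -0.02 and 0.04.

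Of 6 measured genes of ATF and C/EBP partners 1 was higher and 1 lower in G3 than in WT. Cebpb, a partner of ATF4 on DNA, was higher at 75.9 FPKM in G3KO, 167 in G3, 73.5 in KO and 72.4 in WT. Atf3 was lower at 1.05 FPKM in G3KO, 1.03 in G3, 2.37 in KO and 4.51 in WT, low levels on which the added 1 FPKM bears. Atf5 had a difference of -0.97. None of 10 genes of the unfolded protein response in the endoplasmic reticulum passed the rule, with a median of -0.13, the largest differences being those of Dnajb9 (0.83) and Herpud1 (-0.69). None of 14 genes of the mTORC1 growth pathway passed it either, with a median of -0.08, and Sesn3 (0.87) had the largest difference.

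Other genes of amino acid synthesis and breakdown were mixed, 5 of 18 lower and 2 higher in G3 than in WT with a median of -0.28. Aldh1l2, a mitochondrial folate enzyme, stood at 14.6 FPKM in G3KO, 5.88 in G3, 25.3 in KO and 29.8 in WT, and Cth, which makes cysteine, at 4.49 FPKM in G3KO, 2.25 in G3, 9.68 in KO and 13.1 in WT. Bcat1, which transfers the amino group of branched-chain amino acids, had a difference of -1.71. Of 12 other measured transporters 4 were lower and 1 higher, with a median of -0.61. Slc1a5, a glutamine transporter, was lower (-1.23), as was Slc43a1 (-1.22), and Slc7a7 was higher (1.39). Slc43a1 was at only 0.272 FPKM in G3 and 1.96 in WT, so the added 1 FPKM bears on its call. In G3KO minus KO these 12 transporters had a median of -0.02 with 6 negative, against -0.88 with 5 of 5 negative for the transporters of the list.

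ATF4, paired with a C/EBP protein, binds a short DNA element, and the promoters of the 41 genes were searched for its core. RefSeq promoters of build GRCm38.p6, 250 bases before to 50 after each annotated start, were found for 31 of 41 genes. The core TGATGNAA was searched on both strands. It occurred in 12 of 31 genes (38.7%), against 2.65% of the 8311 tested genes with a promoter and 4.51% of all 27025 genes with one. The 41 genes were listed as ATF4 targets and synthetases, so a high share partly follows from the choice of genes. They were also matched by older names, and the 8311 by the symbol as deposited only. A match is a description of the letters and not a bound site, and a window without it says only that these letters are not in it.

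Matches of 11 of these genes are shown so that their letters can be compared between synthetases, synthesis genes and stress genes. Each is given on the gene's own strand, 5′ to 3′, with 10 bases on each side and the matched core in capitals.
Gars, chr6:55037961-55037988, plus strand: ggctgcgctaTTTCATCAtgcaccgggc
Iars, chr13:49682127-49682154, plus strand: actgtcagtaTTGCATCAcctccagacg
Tars, chr15:11399656-11399683, minus strand: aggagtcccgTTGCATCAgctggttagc
Yars, chr4:129189896-129189923, plus strand: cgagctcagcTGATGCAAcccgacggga
Asns, chr6:7693215-7693242, minus strand: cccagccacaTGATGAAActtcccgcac
Pycr1, chr11:120643834-120643861, minus strand: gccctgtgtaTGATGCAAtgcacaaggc
Slc7a11, chr3:50443662-50443689, minus strand: ctcatgtggcTGATGCAAacctggagaa
Slc7a11, chr3:50443643-50443670, minus strand: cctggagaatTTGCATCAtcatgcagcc
Trib3, chr2:152344029-152344056, minus strand: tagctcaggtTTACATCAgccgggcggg
Chac1, chr2:119351039-119351066, plus strand: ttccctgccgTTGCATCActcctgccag
Nupr1, chr7:126625563-126625590, minus strand: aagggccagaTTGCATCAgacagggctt
Vldlr, chr19:27216810-27216837, plus strand: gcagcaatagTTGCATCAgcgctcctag

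Matches began 30 bases before the annotated start in Gars, 15 before in Tars, 23 before in Asns, 103 before in Pycr1, 66 and 47 before in Slc7a11, 193 before in Chac1 and 110 before in Nupr1. In Iars, Yars and Trib3 they began 8, 4 and 15 bases after the start, and in Vldlr 200 bases before the second of 2 annotated starts. Slc7a11 holds 2 cores close together, on opposite strands.

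The 5 synthetases with a match, Aars, Gars, Iars, Tars and Yars, had differences of G3 minus WT between -1.10 and -0.69 with a median of -0.92. The 8 synthetases whose promoter window held none lay between -0.93 and -0.14 with a median of -0.38, so the ranges overlap. A promoter was found for only 13 of the 20 synthetases, and the others, Lars (-1.05) among them, are in neither group. For G3KO minus G3 the synthetase medians were 0.25 with a match and -0.01 without. Synthesis genes went the other way in G3 minus WT, at -1.03 with a match (2 genes) and -1.80 without (6 genes). So did transporters, at -1.07 (1 gene) and -1.43 (2 genes), while stress genes had -0.81 and -0.29. Over the 31 genes with a promoter the medians were -0.96 and -0.89. In G3KO minus G3 synthesis genes had 0.36 with a match and 0.77 without. Over all genes tested the medians of G3 minus WT were -0.10 with a match and 0.0060 without. Among the stress genes Trib3 and Chac1 held a match, as did Nupr1 and Vldlr, whose levels hardly differed between G3 and WT. Phgdh, Psat1, Mthfd2 and Shmt2 held none in these windows and were among the most negative.

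Longer stretches, from 200 bases before to 25 after the annotated start, are shown for the genes with a match among the 8 most negative with a promoter (Trib3, Asns and Chac1), and for Dars, the least negative synthetase with a promoter. Capitals again mark the core.
Trib3, chr2:152344036-152344260, minus strand: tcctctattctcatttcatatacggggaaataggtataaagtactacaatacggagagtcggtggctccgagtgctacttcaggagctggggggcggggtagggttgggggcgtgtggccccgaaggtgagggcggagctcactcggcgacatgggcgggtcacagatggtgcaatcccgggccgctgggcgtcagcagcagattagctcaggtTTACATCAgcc
Asns, chr6:7693185-7693409, minus strand: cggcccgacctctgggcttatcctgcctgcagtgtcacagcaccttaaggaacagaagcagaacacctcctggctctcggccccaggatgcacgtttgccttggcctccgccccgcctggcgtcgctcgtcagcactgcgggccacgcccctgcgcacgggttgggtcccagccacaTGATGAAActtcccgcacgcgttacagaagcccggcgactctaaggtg
Chac1, chr2:119351042-119351266, plus strand: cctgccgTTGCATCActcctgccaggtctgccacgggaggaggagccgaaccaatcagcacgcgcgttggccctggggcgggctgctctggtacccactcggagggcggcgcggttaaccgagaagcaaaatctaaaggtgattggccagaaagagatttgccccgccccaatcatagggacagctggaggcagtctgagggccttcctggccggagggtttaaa
Dars, chr1:128417392-128417616, minus strand: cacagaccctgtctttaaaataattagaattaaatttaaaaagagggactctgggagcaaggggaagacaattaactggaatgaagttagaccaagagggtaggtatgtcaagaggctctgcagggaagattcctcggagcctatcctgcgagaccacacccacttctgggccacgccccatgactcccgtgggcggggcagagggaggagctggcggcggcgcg

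The Dars stretch holds no core, and Dars had 34.2 FPKM in G3KO, 39.2 in G3, 37.3 in KO and 43.2 in WT.

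Annotated exons of 9 of the 41 genes overlap those of another gene in GENCODE M21. Ddit3 and Mars, the methionine enzyme, share 68 exon bases on opposite strands, and Aars shares 1326 bases with Exosc6 on the same strand. The strand setting of the counting is not given in the sources used here, so fragments of such genes cannot be told apart and their values are uncertain. Without the 9 genes, an alternative chosen after seeing the data, 12 of 32 genes were lower in G3 than in WT. Phgdh and Kars have an annotated pseudogene copy, which makes their values uncertain as well.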

How the data were processed

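The tables hold 4 libraries of poly(A)-selected fibroblast RNA, each of another genotype. Values are FPKM, made by the authors and deposited as 1 value per gene symbol. The submitters' processing notes list TopHat2 2.1.1, Cufflinks 2.2.1 and the build mm9, but no order of steps. Annotation, strand setting and filters are not given in the sources used here. Because FPKM is scaled to each library's mapped fragments, a few very abundant transcripts can lower the other values of a library.

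From the deposited FPKM, 741 symbols of short RNA were left out, leaving 22494, and 11587 with a mean of at least 1 FPKM over the 4 libraries were compared. Differences of log2(FPKM + 1) were taken for 5 pairs of libraries, and a gene was called at 1 or more in size. No test was made, since each genotype had 1 library. Depth was estimated from values up to 0.05 FPKM of genes with 1 annotated transcript of 1500 to 8000 nt, taking a fragment length of 200 nt. Between 75.5% and 83.3% of these values lay within 0.1 of a whole fragment, on which the estimate itself was set. Counting intervals (95%, exact binomial, from the longest annotated transcript) cover counting error only.

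The 41 genes and all other lists were chosen with earlier results of these data known. Named are the genes past the size rule in G3 minus WT or G3KO minus G3, Atf4, Ddit3, Eif4ebp1, the 4 synthetases with the largest difference, and up to 3 genes of each pathway list by size. Other genes named were chosen after their values were seen. A sequence that the promoter rule selects is not reported here. Promoters come from RefSeq and exon overlaps and chromosomes from GENCODE M21, both of GRCm38, which is not the files' build, so no coordinate was joined to the tables. Python 3.11.15, pandas 2.3.3, numpy 2.4.6 and scipy 1.17.1 were used. Alternatives were other pseudocounts, scalings, filters and a 1.5-fold rule.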

Additional observations from a re-analysis of the deposited data

Results flagged for a closer look

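Trib3 is listed here because its differences between the KO and WT labels ran opposite ways without and with G3 Terc deficiency, each by more than 1.5-fold. KO minus WT was -0.75 (41.5 FPKM in KO and 70.2 FPKM in WT) and G3KO minus G3 was 0.87 (18.3 FPKM in G3KO and 9.60 FPKM in G3), which makes a double difference of 1.61. That difference was not tested, since each value is 1 library. No other of the 41 genes met this rule, though the double difference was larger for Mthfd2 (1.74) and Slc7a5 (1.68). Their KO minus WT differences, -0.34 and -0.26, were under 1.5-fold. Of the 41 genes 29 were negative in KO minus WT and positive in G3KO minus G3, against 3083 of all 11587 genes.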

How the results depend on the processing

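No paired analysis was possible because each genotype has 1 library, and for the same reason no replicate could be left out. No difference of a named gene past the size rule changed sign under another pseudocount or scaling. With a 1.5-fold rule 29 of the 41 genes were lower in G3 minus WT (15.2% of all genes), 7 higher in G3KO minus G3 (6.15%), 13 lower in G3KO minus KO (7.81%), 27 lower in G3KO minus WT (9.52%) and 3 lower in KO minus WT (0.716%), and none passed in the other direction. G3KO minus G3 gave 4 with size factors, 4 with quantile normalization and 4 with TPM, since Phgdh and Psat1 lie next to the threshold. A pseudocount of 5 FPKM gave 0 for G3KO minus KO, and lowered the synthetase median minus the synthesis and transport median to 0.57 for G3 minus WT and to 0.12 for G3KO minus KO. That difference of medians was 0.99 for G3 minus WT without genes that share exons (chosen after seeing the data), and -0.67 for G3KO minus G3 and 0.31 for G3KO minus KO with a mean of at least 10 FPKM. Beside these 14 recomputed counts and medians, 63 stayed within 1.5 times or 0.1, while of the differences of single named genes 260 moved by less than their counting error and 40 by more. No scaling moved the median of all genes by more than 0.1. Depth limits Slc7a3, Slc7a11, Pycr1 and Chac1 most, with 55 to 1017 fragments a library.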

Other observations

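The 2 genes of the other amino acid synthesis list that were higher in G3 than in WT (2 of 18, against 9.93% of all genes) were Aldh1l1, a cytosolic enzyme that oxidises formyl folate, and Glul, the glutamine synthetase. Aldh1l1 had a difference of 1.41, at 5.78 FPKM in G3KO, 7.43 in G3, 2.69 in KO and 2.17 in WT. Glul had a difference of 1.53, at 10.8 FPKM in G3KO, 25.2 in G3, 7.86 in KO and 8.09 in WT. For Glul G3 stood apart from the other 3 libraries. The other Shmt, Mthfd and Aldh1l genes of that list had differences of -2.16 (Aldh1l2), -1.46 (Shmt1), -1.01 (Mthfd1), -0.86 (Mthfd1l) and -0.21 (Mthfd2l).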
